A study of Rattus norvegicus with 6 samples.

Results

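The genes described here make and use arginine in the testis. Of 10 symbols listed, Ass1, Asl, Arg1, Arg2, Nos1, Nos2, Nos3, Odc1, Ddah1 and Ddah2, 9 each matched 1 of the 35291 rows of the gene table. No row carried the symbol Nos2, which stands for the inducible nitric oxide synthase, and that gene was not analysed here. A row described as similar to the inducible form was not taken for it. The set was chosen by the FPKM of Ass1, which were lower in the diabetic testes, and the other genes were added around it with results of the same comparison known. The differences of these genes between the groups are therefore descriptions and carry no p-value.

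RNA-Seq of the testis set 3 diabetic against 3 non-diabetic Sprague-Dawley rats. Those made diabetic had been fed a high-fat diet, had then received 1 intraperitoneal injection of streptozotocin, which destroys pancreatic beta cells, and were taken 8 weeks after it. The non-diabetic rats had received citrate buffer, and whether they shared the diet is not given in the sources used here. The labels number the replicates without naming animals and without saying whether testes were pooled, and each library was taken as 1 rat. The spread between libraries may therefore be technical in part, and p-values measure only that spread. Levels are FPKM, fragments per kilobase of transcript scaled to the size of the library, as the authors calculated them.

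Argininosuccinate synthase, encoded by Ass1, joins citrulline to aspartate, and argininosuccinate lyase, encoded by Asl, splits the product into arginine and fumarate. In most tissues other than liver this pair serves to regenerate arginine from citrulline. Arginine is then shared out. Arginases cut it into urea and ornithine, nitric oxide synthases turn it into nitric oxide and citrulline, and ornithine decarboxylase (Odc1) starts the polyamines from ornithine. Dimethylarginine dimethylaminohydrolases (Ddah1 and Ddah2) clear methylated arginines that inhibit nitric oxide synthases. In the testis polyamines are known for their part in germ cell development, and nitric oxide is known as a regulator of blood flow and of Leydig cell steroid production.

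The 2 genes of arginine synthesis are shown first with the sequence before their starts, since one of them differed in level between the groups and the other overlapped. Each is the RefSeq window of 250 bases before to 50 bases after the start, 5′ to 3′ (build GRCr8), at chr3:35149480-35149779 on the plus strand for Ass1 and at chr12:32295658-32295957 on the plus strand for Asl. Capitals mark matches to 3 motifs, searched on both strands. The GC box was searched as GGGCGG. The TATA box was searched as TATAAA. The E-box was searched as CACGTG.
Ass1: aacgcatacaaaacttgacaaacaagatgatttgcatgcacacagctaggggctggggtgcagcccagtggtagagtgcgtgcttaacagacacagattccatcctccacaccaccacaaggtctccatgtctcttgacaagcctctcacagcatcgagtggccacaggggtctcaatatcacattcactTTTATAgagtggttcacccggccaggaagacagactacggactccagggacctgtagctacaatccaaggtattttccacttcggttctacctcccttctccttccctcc
Asl: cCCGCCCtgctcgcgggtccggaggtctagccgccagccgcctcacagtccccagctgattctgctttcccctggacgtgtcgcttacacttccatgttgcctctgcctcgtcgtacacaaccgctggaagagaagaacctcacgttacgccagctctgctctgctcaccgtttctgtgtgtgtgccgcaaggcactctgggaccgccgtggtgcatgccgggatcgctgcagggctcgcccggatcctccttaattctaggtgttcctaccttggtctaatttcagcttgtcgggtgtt
The Ass1 window held 1 match to TATAAA, read on the opposite strand, and none to GGGCGG, with a GC content of 51.0% and 6 CpG. The Asl window held 1 match to GGGCGG, read on the opposite strand, and none to TATAAA, with a GC content of 60.3% and 22 CpG. These are matches of sequence at any position, and whether they act in the promoter was not tested. Neither held CACGTG, and no matches overlapped. Other forms of the E-box were not searched. Of 33469 RefSeq windows of the same length, 33.1% held GGGCGG, 14.2% TATAAA and 6.42% CACGTG, and the median was 51.7% GC and 7 CpG. The annotated Ass1 gene begins upstream of this window, and which start the testis used was not tested. Windows were matched for 6 of the 10 genes, and that of Odc1 was the richest of these in CpG, with 47 CpG, 77.3% GC and 5 matches to GGGCGG.

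The levels of the 9 genes spanned from below 1 to over 80 FPKM. Odc1 was highest with a mean of 83.4 FPKM over the 6 rats, above 94.8% of the 20338 genes averaging 0.5 FPKM or more. Next were Asl at 45.3 FPKM and Ass1 at 19.5 FPKM, above the arginases and nitric oxide synthases measured. Ddah1 at 4.97 FPKM and Ddah2 at 4.32 FPKM lay near the middle of the genes tested, above 52.0% and 48.5% of them. Nos3 was at 1.41 FPKM, Arg2 at 0.581 FPKM, Nos1 at 0.558 FPKM and Arg1 at 0.154 FPKM. In this order the ranges over the 6 rats overlapped for the neighbours Ddah1 and Ddah2 and for Arg2 and Nos1, and were apart for the other neighbours.

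**Figure D1:**
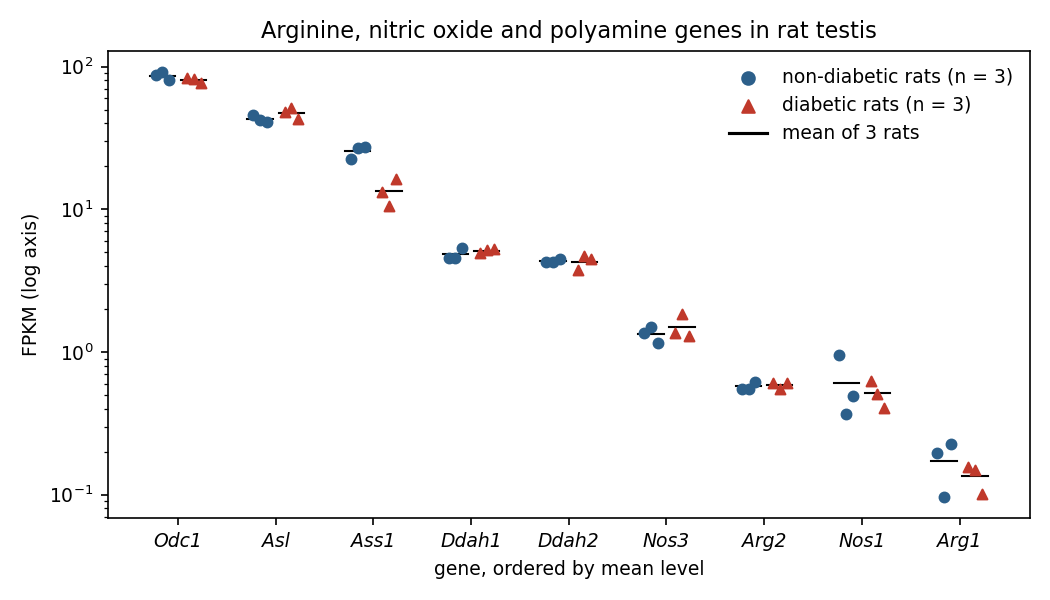
Levels of the 9 genes in each rat, in FPKM on a log axis, with genes ordered from left to right by their mean level. Points are single rats (circles non-diabetic, triangles diabetic) and lines are means of 3 rats. The groups are apart for Ass1, with diabetic rats at 10.6 to 16.4 FPKM and non-diabetic rats at 22.6 to 27.2 FPKM, and overlap for the other 8 genes.

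Among the enzymes that make arginine, Ass1 was lower in diabetic testes and Asl was not. Ass1 (ENSRNOG00000008837) read 13.2, 10.6 and 16.4 FPKM in diabetic testes, against 22.6, 26.9 and 27.2 FPKM in non-diabetic testes. Every diabetic rat lay below every non-diabetic rat. The group means came to 13.4 ± 2.89 FPKM and 25.6 ± 2.54 FPKM (SD, n = 3 each), so the diabetic mean was 52.4% of the non-diabetic mean. On the scale of log2(FPKM + 0.1), diabetic minus non-diabetic, the difference in Ass1 was -0.95 with a standard error of 0.16. This is short of the study's cutoff of 1. Leaving out 1 rat at a time gave values from -1.10, without diabetic replicate 3, to -0.79, without diabetic replicate 2, on both sides of that cutoff.

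Asl (ENSRNOG00000000903) read 48.1, 51.4 and 42.7 FPKM in diabetic testes, against 46.2, 42.2 and 41.3 FPKM in non-diabetic testes. The groups overlapped, and the diabetic mean was the higher of the pair. The group means came to 47.4 ± 4.37 FPKM and 43.2 ± 2.60 FPKM (SD, n = 3 each), a log2 difference of 0.13 with a standard error of 0.08. The 95% interval of that difference ran from -0.07 to 0.33. Since FPKM are per length, the enzymes can be compared within a rat. The ratio of Ass1 to Asl was 0.275, 0.206 and 0.383 in the diabetic rats and 0.491, 0.637 and 0.659 in the non-diabetic rats, averaging 0.288 ± 0.0891 and 0.595 ± 0.0915 (SD, n = 3 each). Asl was the more abundant transcript in all 6 rats. The ratios were apart between the groups, which restates the Ass1 values that chose the set, since Asl itself overlapped.

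**Figure D2:**
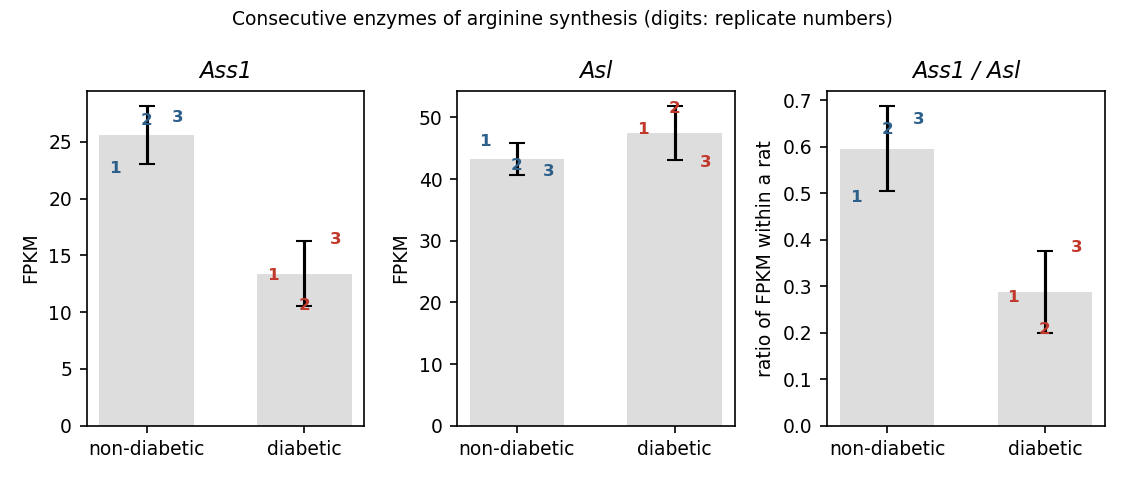
Ass1, Asl and their ratio in the 2 groups. Left and middle, FPKM. Right, the ratio of FPKM within a rat. Bars are means of 3 rats, error bars are SD and digits mark the replicate numbers. Ass1, and with it the ratio, is lower in each diabetic rat than in every non-diabetic rat, and the values of Asl overlap.

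Markers of Leydig cells, the interstitial cells that make testosterone, were lower in the same rats. Of 7 markers listed, 6 had a row (Cyp17a1, Cyp11a1, Star, Insl3, Lhcgr and Hsd17b3). All 6 had an unadjusted p-value below 0.05 from limma and were lower in the diabetic rats, 5 of them also passed the study's criterion, and for 1 the adjusted p-value was below 0.05. None of the 6 read 0 in any rat. Their summed level was 41.3, 27.3 and 57.3 FPKM in diabetic testes, against 104, 117 and 84.5 FPKM in non-diabetic testes. Within the diabetic group the rats had the same order for Ass1 and for this sum, and within the non-diabetic group they did not. Within a rat, the ratio of Ass1 to the marker overlapped between the groups for 5 of the 6 markers and was apart for Cyp17a1. For instance, the ratio of Ass1 to Lhcgr, the luteinizing hormone receptor, was 4.56 to 7.14 in diabetic testes and 5.08 to 5.80 in non-diabetic testes. The ratio of Ass1 to Cyp11a1, the side-chain cleavage enzyme of steroid synthesis, was 1.19 to 1.85 in the diabetic and 0.882 to 1.73 in the non-diabetic rats. Against Cyp17a1, the 17-alpha-hydroxylase, Ass1 stood higher in each diabetic rat than in every non-diabetic rat, at ratios of 1.20 to 1.70 against 0.745 to 1.03. The mean ratio was higher in the diabetic rats for each of the 6 markers. For Insl3 it was 4.68 ± 2.30 against 2.63 ± 0.165 (SD, n = 3 each). The diabetic means of the markers were 32.4% (Cyp17a1) to 48.9% (Lhcgr) of the non-diabetic means, beside 52.4% for Ass1. The part of Leydig cells in the difference of Ass1 was not tested, and in tissue RNA fewer cells of a type and less RNA per cell cannot be told apart.

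**Figure D3:**
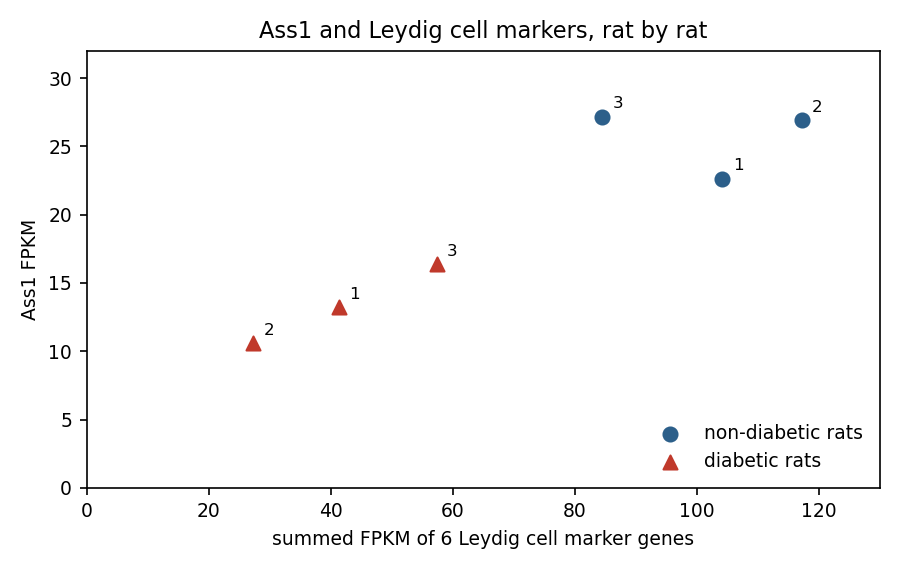
Ass1 level in FPKM (vertical axis) against the summed FPKM of 6 Leydig cell marker genes (horizontal axis), 1 point per rat with its replicate number. The diabetic rats lie at 27.3 to 57.3 FPKM of the markers and the non-diabetic rats at 84.5 to 117 FPKM, and both measures are apart between the groups.

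The summed levels of the other 9 marker lists overlapped between the groups. Spermatid markers summed to 7869 to 9377 FPKM in diabetic testes, against 7370.2 to 10051 FPKM in non-diabetic testes, and Sertoli cell markers to 308 to 325 FPKM and 259 to 328 FPKM. Macrophage markers summed to 25.6 to 30.8 FPKM and 30.4 to 31.9 FPKM, and endothelial markers to 3.14 to 3.41 FPKM and 3.09 to 4.56 FPKM. Of the 5 macrophage markers, 2 were lower in the diabetic rats at an unadjusted p-value below 0.05 from limma, with groups that were apart. These were Cd68, with a log2 difference of -0.984, and Csf1r, with -0.795, beside -0.95 for Ass1. All 5 differences were below 0. Most of the macrophage sum came from Mrc1, at a mean of 21.2 FPKM, whose groups overlapped. Among the 5 spermatogonium markers, 1 was lower at that p-value, Kit, with a log2 difference of -0.30 (limma, unadjusted p = 0.0314) and groups that were apart. Over all genes tested, 4.99% were lower at that p-value. The part of these 3 markers in the values described here was not tested either. The labelled tissue thus carried its germ cell and somatic markers, while 4 epididymal markers summed to at most 0.170 FPKM in any rat and 1 of them, Defb1, was listed at 0 in all 6.

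The arginases were scarce in both groups. Arg2, the mitochondrial arginase, read 0.605, 0.546 and 0.611 FPKM in diabetic testes, against 0.551, 0.551 and 0.619 FPKM in non-diabetic testes. The groups overlapped, with a log2 difference of 0.03, a standard error of 0.27 and a 95% interval from -0.60 to 0.66. Arg1, the cytosolic arginase of the urea cycle in liver, read 0.156, 0.149 and 0.10 FPKM in diabetic testes, against 0.197, 0.0969 and 0.225 FPKM in non-diabetic testes. These values of Arg1 overlapped and lay below the minimum mean of 0.5 FPKM, so no difference was fitted. For transcripts this low the intervals are wide, and a change of Arg2 of the size seen for Ass1 lies outside its interval.

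Of the nitric oxide synthases, the endothelial form Nos3 and the neuronal form Nos1 were measured. Nos3 read 1.36, 1.83 and 1.28 FPKM in diabetic testes, against 1.35, 1.48 and 1.16 FPKM in non-diabetic testes. Only diabetic replicate 2 lay above the range of the non-diabetic rats, and the log2 difference was 0.14 with a standard error of 0.21 (95% interval -0.35 to 0.63). Nos1 read 0.625, 0.505 and 0.407 FPKM in diabetic testes, against 0.949, 0.367 and 0.495 FPKM in non-diabetic testes. The non-diabetic rats held both the highest and the lowest value of Nos1. Its log2 difference was -0.13 with a standard error of 0.39, and its 95% interval from -1.06 to 0.80 includes a difference as large as that of Ass1. Leaving out 1 rat at a time gave values from -0.38 to 0.20.

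Odc1, the rate-limiting enzyme of polyamine synthesis, was the most abundant of these transcripts. It read 82.8, 81.9 and 76.6 FPKM in diabetic testes, against 86.7, 91.7 and 80.4 FPKM in non-diabetic testes. The groups overlapped at the level of non-diabetic replicate 3. The group means came to 80.4 ± 3.31 FPKM and 86.3 ± 5.68 FPKM (SD, n = 3 each), a log2 difference of -0.10 with a standard error of 0.07 and a 95% interval from -0.26 to 0.06. The coefficient of variation of Odc1 within a group was 4.12% and 6.58%, against 21.6% for Ass1 in the diabetic and 9.93% in the non-diabetic rats.

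The enzymes that clear methylated arginines overlapped between the groups. Ddah1 read 4.91, 5.19 and 5.26 FPKM in diabetic testes, against 4.58, 4.52 and 5.38 FPKM in non-diabetic testes. Ddah2 read 3.75, 4.71 and 4.45 FPKM in diabetic testes, against 4.24, 4.28 and 4.47 FPKM in non-diabetic testes. Their log2 differences were 0.09 with a standard error of 0.11 for Ddah1 and -0.02 with a standard error of 0.12 for Ddah2. Although the ranges of the 2 genes overlapped across rats, Ddah1 was above Ddah2 within each of the 6 rats, at ratios of 1.06 to 1.31.

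Over the set, 8 of the 10 genes had a mean of at least 0.5 FPKM and were fitted with limma together with all other such genes. None of the 8 passed the study's criterion, a log2 difference of 1 or more in either direction and an unadjusted p-value below 0.05, which 1.24% of the 20338 genes passed in either direction. Ass1 did pass it without diabetic replicate 3, at -1.10, and without non-diabetic replicate 1, at -1.03. Groups were apart for 1 of the 8, Ass1, against 13.0% of all genes tested in either direction and 8.42% with the diabetic rats lower. Ass1 had been chosen for that difference, and nothing further is read from these counts. The log2 difference was above 0 for 4 genes and below 0 for 4, with a median of 0.01, beside a median of -0.02 over all genes tested. The lower level of Ass1 was thus not accompanied by differences of like size in the other members fitted, although for Nos1 the spread between rats leaves such a difference within its interval.

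**Figure D4:**
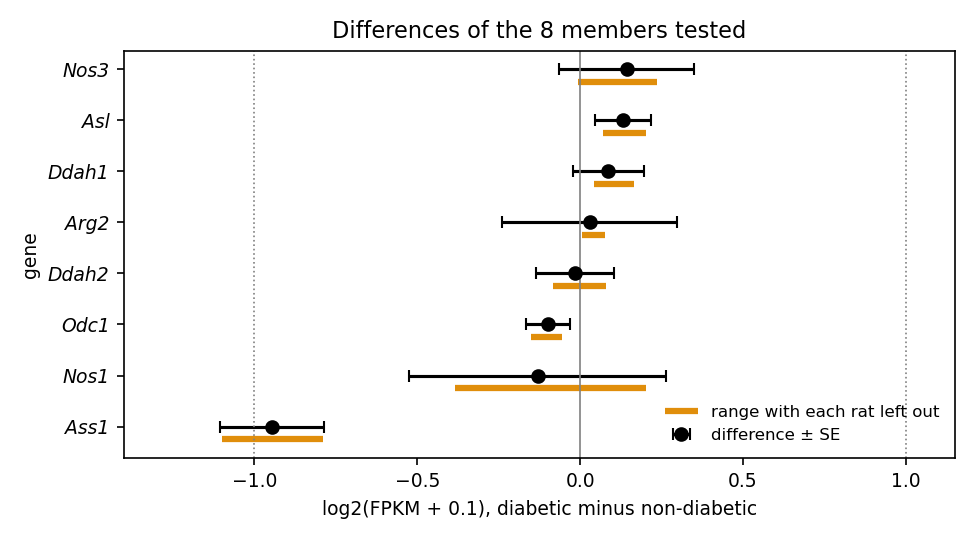
Differences of the 8 genes fitted, as log2(FPKM + 0.1), diabetic minus non-diabetic. Points and black bars are the difference and its standard error, orange bars the range with each rat left out in turn, and dotted lines the study's cutoff of 1 in either direction. Ass1 lies at -0.95 and the other 7 genes between -0.13 and 0.14.

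The neighbouring steps were examined with 6 lists that hold 82 genes outside the set. A row was found for 80 of these and 62 had a mean of at least 0.5 FPKM. None of the 62 passed the study's criterion and for 0 of them was the adjusted p-value of limma over all genes below 0.05, which held for 0.0344% of the genes tested. An unadjusted p-value below 0.05 was reached by 5 genes, Got2, Slc3a2, Slc7a2, Cav1 and Sat1, each lower in the diabetic rats, and by 0 genes in the other direction. That is 8.06% of the 62, beside 4.99% of all genes tested with the diabetic rats lower and 2.47% with them higher. Groups were apart for 10 of the 62 (16.1%, beside 13.0% of all genes tested), 7 lower and 3 higher. The median log2 difference over the 62 genes was -0.04.

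**Figure D5:**
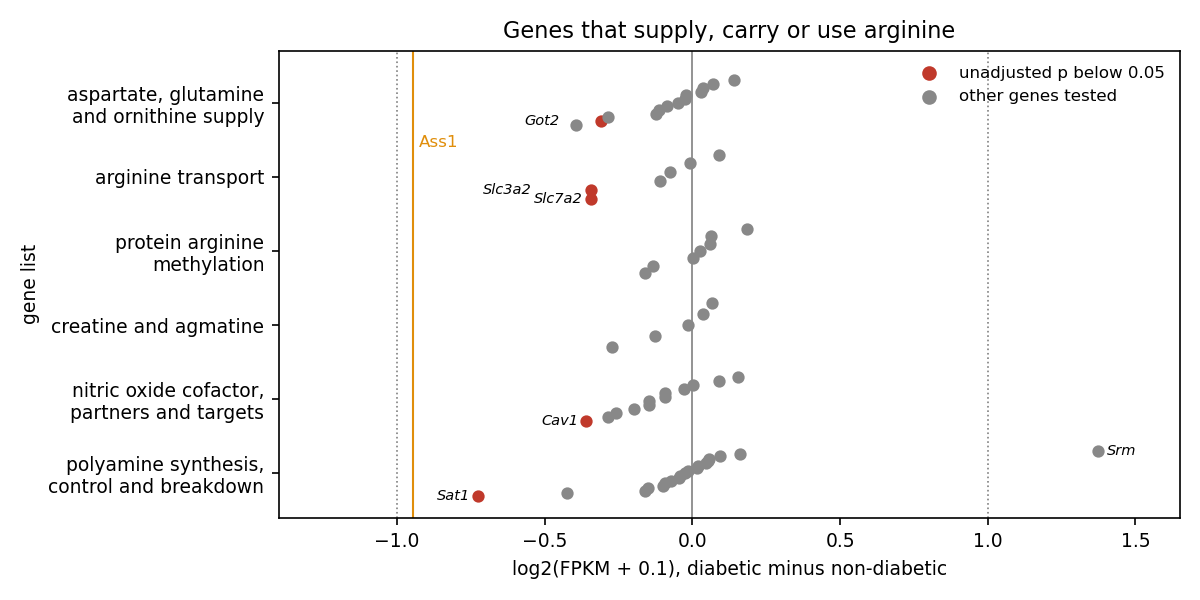
Differences of the 62 genes fitted outside the set, by list, as log2(FPKM + 0.1), diabetic minus non-diabetic. Red points have an unadjusted p-value below 0.05 from limma, grey points do not, dotted lines mark 1 in either direction and the orange line the difference of Ass1. The 5 red points lie between -0.73 and -0.31, and Srm, at 1.37, is listed at 0 in 1 non-diabetic rat.

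In the list of arginine transport, 2 of 6 genes tested were lower at an unadjusted p-value below 0.05 and 0 were higher. Slc3a2, the heavy chain that several amino acid transporters need at the cell surface, read 42.5, 38.8 and 41.4 FPKM in diabetic testes, against 53.7, 55.7 and 46.7 FPKM in non-diabetic testes. It was the most abundant gene of the list, and every diabetic rat lay below every non-diabetic rat. The log2 difference was -0.34 with an SE of 0.08 (limma, unadjusted p = 0.00375 and adjusted p = 0.410). Slc3a2 serves carriers of other amino acids too. Slc7a2, a cationic amino acid transporter, read 2.56, 2.36 and 2.26 FPKM in diabetic testes, against 2.91, 3.33 and 2.97 FPKM in non-diabetic testes. The groups were apart, with a log2 difference of -0.35 and an SE of 0.13 (limma, unadjusted p = 0.0294 and adjusted p = 0.627). The other 4 genes of this list tested had log2 differences between -0.11 and 0.09, and 3 of the 9 listed were below 0.5 FPKM.

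Aspartate is the nitrogen donor of the Ass1 step, and the list of genes that supply aspartate, glutamine and ornithine had 13 genes tested. Of these, 1 was lower at an unadjusted p-value below 0.05 and 0 were higher. Got2, the mitochondrial aspartate aminotransferase, read 4.59, 4.40 and 4.90 FPKM in diabetic testes, against 5.35, 6.26 and 5.71 FPKM in non-diabetic testes. The groups were apart, with a log2 difference of -0.31 and an SE of 0.10 (limma, unadjusted p = 0.0202 and adjusted p = 0.581). Got1, the cytosolic form, ran from 24.1 to 28.6 FPKM and from 26.6 to 30.6 FPKM, with a log2 difference of -0.13 (limma, adjusted p = 0.842). Glul, glutamine synthetase, had the highest level of this list, at 526 ± 8.61 FPKM and 536 ± 22.3 FPKM (SD, n = 3 each), and a log2 difference of -0.02 (limma, adjusted p = 0.957).

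Otc, the urea cycle enzyme that makes citrulline from ornithine, was singled out after its values were seen. It read 0.0332, 0 and 0 FPKM in diabetic testes, against 0.211, 0.220 and 0.177 FPKM in non-diabetic testes. The groups did not overlap, but all 6 values of Otc lay below the minimum of 0.5 FPKM. Cps1, which feeds that step with carbamoyl phosphate, was also below the minimum, with groups that overlapped.

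For polyamines, all 19 genes listed were tested, 1 was lower at an unadjusted p-value below 0.05 and 0 were higher. Sat1, the acetyltransferase that starts polyamine breakdown, read 3.47, 2.67 and 4.74 FPKM in diabetic testes, against 6.10, 6.98 and 4.86 FPKM in non-diabetic testes. The groups were apart, diabetic replicate 3 by a small margin, with a log2 difference of -0.73 and an SE of 0.22 (limma, unadjusted p = 0.0139 and adjusted p = 0.539). Eif5a2, a form of the translation factor that carries the spermidine-derived residue hypusine, had a log2 difference of -0.15 with groups that were apart (limma, unadjusted p = 0.0671 and adjusted p = 0.711).

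Oaz3, the antizyme of spermatids, which binds ornithine decarboxylase, exceeded every other gene of these lists. It read 3717, 3227 and 3618 FPKM in diabetic testes, against 3151, 3463 and 3285.5 FPKM in non-diabetic testes. The values overlapped, with a log2 difference of 0.09 and an SE of 0.08 (limma, adjusted p = 0.860). The level of Odc1 per unit of Oaz3 was 0.0212 to 0.0254 in the diabetic and 0.0245 to 0.0275 in the non-diabetic rats, so the antizyme transcript outweighed that of its target in every rat of both groups.

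The extreme value of the polyamine list belonged to Srm, spermidine synthase, which was also singled out after its values were seen. It read 1.87, 1.67 and 1.46 FPKM in diabetic testes, against 1.48, 0 and 1.87 FPKM in non-diabetic testes. A second row, LOC100912604, described as spermidine synthase-like, had nearly the same values, 1.95, 1.80 and 1.43 FPKM against 1.53, 0 and 1.84 FPKM, with the 0 in the same rat. Reads may have been split between these copies, and the level of Srm is uncertain. Its log2 difference of 1.37 had a standard error of 1.05, and without non-diabetic replicate 2 the difference was -0.01.

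Cofactor, partner and target genes of nitric oxide synthases had 12 genes tested, with 1 lower at an unadjusted p-value below 0.05 and 0 higher. Cav1, caveolin-1, which binds and restrains Nos3, read 4.20, 3.38 and 4.49 FPKM in diabetic testes, against 5.08, 5.50 and 4.90 FPKM in non-diabetic testes. The groups were apart, with a log2 difference of -0.36 and an SE of 0.13 (limma, unadjusted p = 0.0291 and adjusted p = 0.627). Pcbd1, which regenerates the cofactor tetrahydrobiopterin, had a log2 difference of -0.29 (limma, adjusted p = 0.843) and overlapping groups. Nosip, a nitric oxide synthase interacting protein and the most abundant of this list, was at 10.6 ± 0.605 FPKM and 9.90 ± 0.193 FPKM (SD, n = 3 each), with groups that were apart and a log2 difference of 0.09 (limma, adjusted p = 0.868).

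Protein arginine methyltransferases, whose products release methylated arginines on breakdown, had 7 genes of their list tested and 0 with an unadjusted p-value below 0.05 from limma in either direction. Prmt2 was at 8.56 ± 0.540 FPKM in diabetic testes and 7.51 ± 0.196 FPKM in non-diabetic testes (SD, n = 3 each), with groups that were apart and a log2 difference of 0.18 (limma, unadjusted p = 0.0649 and adjusted p = 0.703). Prmt1, the main asymmetric methyltransferase, had a log2 difference of -0.13 and overlapping groups (limma, adjusted p = 0.858). Prmt7, which makes monomethylarginine, was the highest of the list at 37.5 ± 1.94 FPKM and 37.4 ± 1.72 FPKM (SD, n = 3 each), a log2 difference of 0.0026 (limma, adjusted p = 0.997).

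Creatine and agmatine genes had 5 genes tested and likewise 0 with an unadjusted p-value below 0.05 from limma. Gamt, which completes creatine from the product of arginine and glycine, had a log2 difference of -0.13 (limma, adjusted p = 0.883), and Ckb, a creatine kinase, one of -0.27 (limma, adjusted p = 0.919). Both had overlapping groups. Gatm, which transfers the amidino group of arginine to glycine and was singled out after its values were seen, had a mean of 41.0 FPKM over the 6 rats, above the 19.5 FPKM of Ass1. Azin2, an antizyme inhibitor known from testis and brain, had the highest level of the list, at 193 ± 14.8 FPKM and 196 ± 25.9 FPKM (SD, n = 3 each), and a log2 difference of -0.01 (limma, adjusted p = 0.992). By that function Azin2 belongs with the antizymes of the polyamine list, and its level is no measure of genes that handle agmatine.

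Of the 5 genes with an unadjusted p-value below 0.05, Slc3a2 stayed below it in all 14 alternative fits and Sat1 in 13 of 14. Got2 stayed below it in 11, Slc7a2 in 10 and Cav1 in 10. With non-diabetic replicate 2 left out, 1 of the 62 genes was below it, and with diabetic replicate 2 left out, 2 were. The Leydig cell markers above were lower in the same diabetic rats, and their part in these 5 differences was not tested.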

How the data were processed

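RNA-Seq libraries of testis from 3 diabetic and 3 non-diabetic rats were used, grouped by the condition in the labels. Read quality was assessed by the authors in FastQC. They screened reads against an rRNA database (BWA), then mapped them (STAR) and built transcripts (StringTie). The authors deposited 1 FPKM value per gene and rat. The genome build and tool versions are not given in the sources used here. The table holds no counts, so the DESeq2 screen of the study could not be repeated.

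Values were transformed to log2(FPKM + 0.1). Genes averaging 0.5 FPKM or more (20338) were compared with limma 3.58.1 in R 4.3.3 (lmFit, eBayes with trend, two-sided, Benjamini-Hochberg adjustment). That step was tested on simulated data with differences larger than any described here, so the test does not cover differences of this size. FPKM differences on this scale are understated for low genes. The study's criterion is a log2 difference of 1 or more in either direction and an unadjusted p-value below 0.05. The genes and lists were chosen with earlier results of these data known. Of each list, the 2 genes with the lowest p-value, the most abundant gene and any gene past the criterion were named. Read depth is unknown. The commonest ratios between libraries among genes below 1 FPKM gave relative depths of 0.966 to 1.09 in the diabetic and 0.894 to 1.02 in the non-diabetic rats. Correlations of log2 values between libraries were 0.957 to 0.966, no pair was identical, and no library stood apart. Older symbols from RefSeq (GRCr8) were used for 3 genes. Fits were repeated with the pseudocount at 1 and at 0.01, with all genes kept, with a minimum mean of 1 FPKM, on values rescaled to TPM or by median ratios, with an untrended eBayes, with a replicate block, and leaving out each rat.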

Additional observations from a re-analysis of the deposited data

How the results depend on the processing

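All 110 recomputed log2 differences of the 8 genes stayed within 1 standard deviation between rats of the values given. For most of them this was fixed in advance and is no sign of stability. Leaving out 1 of 3 rats moves a group mean by less than that standard deviation allows. The changed filters, the untrended eBayes and the replicate block return the same difference by design. Only the pseudocounts and the rescaled values could have come out otherwise. None of the 8 passed the study's criterion under these alternatives, except Ass1 without diabetic replicate 3 and without non-diabetic replicate 1. The log2 difference of Ass1 was -0.90 with a pseudocount of 1, -0.92 under median-ratio scaling and -0.95 on values rescaled to TPM. A replicate block cannot change it, since each replicate number occurs once in each group. Past the study's criterion were 253 genes, 91 with a pseudocount of 1 and 621 without a filter. An adjusted p-value below 0.05 from limma was reached by 7 genes, by 3 when all genes were kept, 12 with an untrended eBayes, 4 with the replicate block and 0 to 11 with each rat left out. It was 4 without diabetic replicate 1, 11 without non-diabetic replicate 1 and 0 without non-diabetic replicate 3. In that last fit 1504 genes fell below an unadjusted p-value of 0.05. Groups that do not overlap numbered 2640, and 4227 to 5237 with each rat left out, since 5 rats overlap less often than 6. Of the genes in the 6 lists, 1 (Otc) passed the study's criterion without a filter. The count of these genes with an unadjusted p-value below 0.05, for which alternatives were chosen after seeing the data, was 3 with the replicate block and 1 to 6 with each rat left out. Same-numbered rats had correlations of their deviations from the group means of 0.106, 0.0153 and 0.0979. Diabetic replicates 1 and 3 correlated best with their own number, and diabetic replicate 2 with non-diabetic replicate 3, at 0.0318. Whether same-numbered samples share more than a number cannot be decided from these values. Where a count moved, the cause was not tested unless stated. Depth in reads is unknown, so no counting error could be given. Arg2 and Nos1 had no difference with a minimum mean of 1 FPKM, which they did not reach.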
